A study of Oryza sativa Indica Group with 17 samples.

Results

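G6686 is a rice line derived from the indica variety IR64 by gamma ray mutagenesis, and it was set here against the array of unmutagenized wild type IR64 that the submitters call the WT check. Both arrays were taken by their sample titles, so 2 of the 17 arrays of the series form the comparison. Genomic DNA for both came from leaves of greenhouse plants at 45 days after sowing, was purified on a cesium chloride gradient, was biotin labeled by random priming and was hybridized to the Affymetrix Rice GeneChip, an array built to measure transcripts. G6686 had been carried by single seed descent to the M4 or M5 generation before its DNA was extracted. The 15 other lines, also mutants of IR64, were 9 further gamma ray lines, 4 lines labelled DEB and 2 fast neutron lines, and the labels name the same wild type DNA as the reference of every array. The dwarf line d1 is among those labelled DEB, although the study's text describes it as a product of gamma ray treatment. Each line, and wild type, has 1 array among those used here, so no value below has a replicate check and no p-value is given.

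Gamma rays break DNA, and when the ends are rejoined the stretch between breaks can be lost, so irradiated plants may carry deletions that remove one gene or several adjacent ones. When genomic DNA is hybridized to short oligonucleotide probes, a sequence that is missing from the mutant gives a lower signal than in wild type. Genes with close relatives elsewhere in the genome can keep part of that signal, and on an expression array the probes lie mainly toward the 3′ ends of transcripts, so that promoters and introns are poorly covered.

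The value for each probe set is the share of its perfect match probes with a signal that the authors classed as low relative to wild type, a fraction between 0 and 1. Such probes are called flagged here, and a share of 0.5 or more was taken as a call. For 57008 of the 57194 probe sets, the shares of all arrays were multiples of 1/11 within 0.001. The next lower value seen in G6686 below the threshold was 0.455, and 3 called sets stood exactly at 0.5. Which log ratio to wild type made a probe count as flagged is not stated next to the values. The labels name wild type DNA as the reference of the WT check array too, but it is not clear which wild type signal was used. The shares on that array were above 0 for 31736 probe sets, so it was not compared with an identical signal.

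Most of the genome of G6686 gave few flagged probes. The mean share was 0.0383 in G6686 and 0.0745 in the WT check, and the median was 0 in G6686 and 0.0909 in the WT check. In G6686, 40418 probe sets (70.7%) were at 0, against 25458 (44.5%) in the WT check. The share was higher in G6686 than in the WT check for 8890 probe sets (15.5%), equal for 23730 (41.5%) and lower for 24574 (43.0%). Low shares above 0 were therefore more frequent on the wild type array, and shares of 0 on the mutant array.

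At high shares the order of the arrays was the opposite. At 0.2 or more there were 1473 probe sets in G6686 and 2934 in the WT check, and at 0.3 or more 391 in G6686 and 643 in the WT check. At 0.4 or more the counts were 91 in G6686 and 90 in the WT check. At the threshold of 0.5, 32 probe sets were called in G6686 (0.0559% of all sets, with a 95% Clopper-Pearson interval, exact and for counting error alone, of 0.0383 to 0.079%) and 11 in the WT check (0.0192%, interval 0.0096 to 0.0344%). These intervals treat every probe set as independent, which sets of the same gene or of adjacent genes are not. They do not measure the spread between arrays and cannot be used to compare the 2 arrays. At 0.6 or more, 17 sets were left in G6686 and none in the WT check, where the highest share was 0.556. A difference of 0.5 or more in the share was found for 19 sets with G6686 higher and for 9 sets with the WT check higher. Counted down from the most called probe sets, G6686 ranked 11 of the 16 lines, tied with G6489, with the 15 other lines between 8 and 1461 (median 90), and 7 of 16 by mean share, with the other lines between 0.00684 and 0.176 (median 0.0353).

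**Figure D1:**
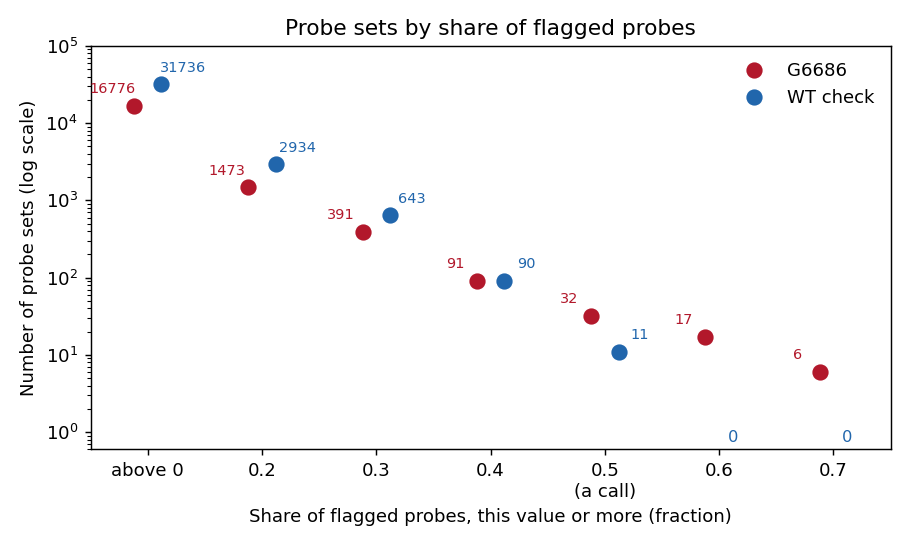
Number of probe sets (log scale) at or above each share of flagged probes on the G6686 array (red) and on the WT check array (blue), 1 array each. The WT check has more sets at low shares (2934 at 0.2 or more, against 1473 in G6686), the counts meet at 0.4, and from 0.6 upward only G6686 has any (17 sets at 0.6 and 6 at 0.7).

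No probe set was called on both arrays. With calls at only 0.0559% of sets in G6686 and 0.0192% in the WT check, this says nothing about the sets. Across the 32 sets called in G6686, the WT check had shares between 0 and 0.273, with 13 sets at 0. Over all sets, 44.5% were at 0 in the WT check and 70.7% in G6686. Across the 11 sets called in the WT check, all between 0.545 and 0.556 there, G6686 was at 0 for 9 and reached 0.182 at OsAffx.17580.1.S1_at and 0.273 at Os.53375.1.S1_at.

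To place the calls, probe sets paired with exactly 1 gene were put in the gene order of the ASM3414082v1 assembly, a japonica genome, and a gene with several sets was given their median. Of the 17903 nuclear genes measured in this way, 12 were called in G6686 (0.067%) and 1 in the WT check (0.00559%). The assembly was used for order only. Its table gives the called genes as protein coding but names no function, so none is stated here.

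Chromosome 3 carried 5 of the 12 genes called in G6686 out of 2456 measured there (0.204%), and all 5 lay in a single run with 1 uncalled gene among them. The remaining 7 were spread over the other chromosomes, 7 of 15447 genes (0.0453%). No gene of chromosome 3 was called in the WT check. The run began at LOC4332980 and ended at LOC9272415. It held 6 measured genes, of which only LOC4332989 was not called.

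LOC4332980 had the highest share of the run, 0.727 in G6686, against 0 in the WT check. This gene was at 0 in 14 of the 15 other lines and at 0.273 in G6989. Its neighbour LOC4332981 had a share of 0.636 in G6686, against 0.182 in the WT check, the highest wild type value among the called genes of the run. With the share of the WT check subtracted, LOC4332981 stood at 0.455 and was no longer called, which left 4 called genes in the run. In the other lines LOC4332981 was at or below 0.273, a value reached in G282, G6603 and G6989.

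LOC4332986 had a share of 0.636 in G6686, up to 0.182 in the other lines (11 of 15 at 0) and 0 in the WT check. LOC4332988 was the only gene of the run with 2 probe sets, and both were called. Os.28382.1.S1_at had a share of 0.727 in G6686 and 0 in the WT check, and Os.28382.1.S2_at had 0.636 in G6686 and 0.0909 in the WT check. Their median was 0.682 in G6686, at most 0.227 in the other lines, and 0.0455 in the WT check. Both sets come from the same transcript cluster by name, and whether their probes overlap was not examined.

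LOC9272415, the last called gene, had a share of 0.636 in G6686 and 0 in the WT check. The other lines came closest to G6686 here, with 0.455 in G282 and 0.364 in G9799. Between LOC4332988 and LOC9272415 lay the uncalled gene LOC4332989, whose single probe set gave 0.0909 in G6686 and 0.182 in the WT check. At this gene G6686 was thus below the WT check, between 2 neighbours that were called.

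Outside the run the shares in G6686 were low from the nearest measured gene onward. The 5 measured genes before it, starting from the nearest, were LOC4332979 (0.182 in G6686, 0 in the WT check), LOC4332978 (0.182 and 0), LOC4332976 (0 and 0.0909), LOC4332972 (0 and 0.0909) and LOC4332971 (0.0909 and 0). The 5 after it were LOC4332993 (0 in G6686, 0.0909 in the WT check), LOC4332994 (0.0909 and 0), LOC4332995 (0.182 and 0.0909), LOC4332996 (0 and 0.182) and LOC4332998 (0.0909 and 0). None of these 10 genes exceeded 0.182 in G6686. Over the 15 measured genes on each side, the median share in G6686 was 0.0909 before the run and 0 after it, with 6 and 8 genes at 0 and a highest share of 0.273 on both sides. In the WT check the medians of the same genes were 0 before the run and 0.0909 after it, and the highest shares 0.0909 and 0.182.

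**Figure D2:**
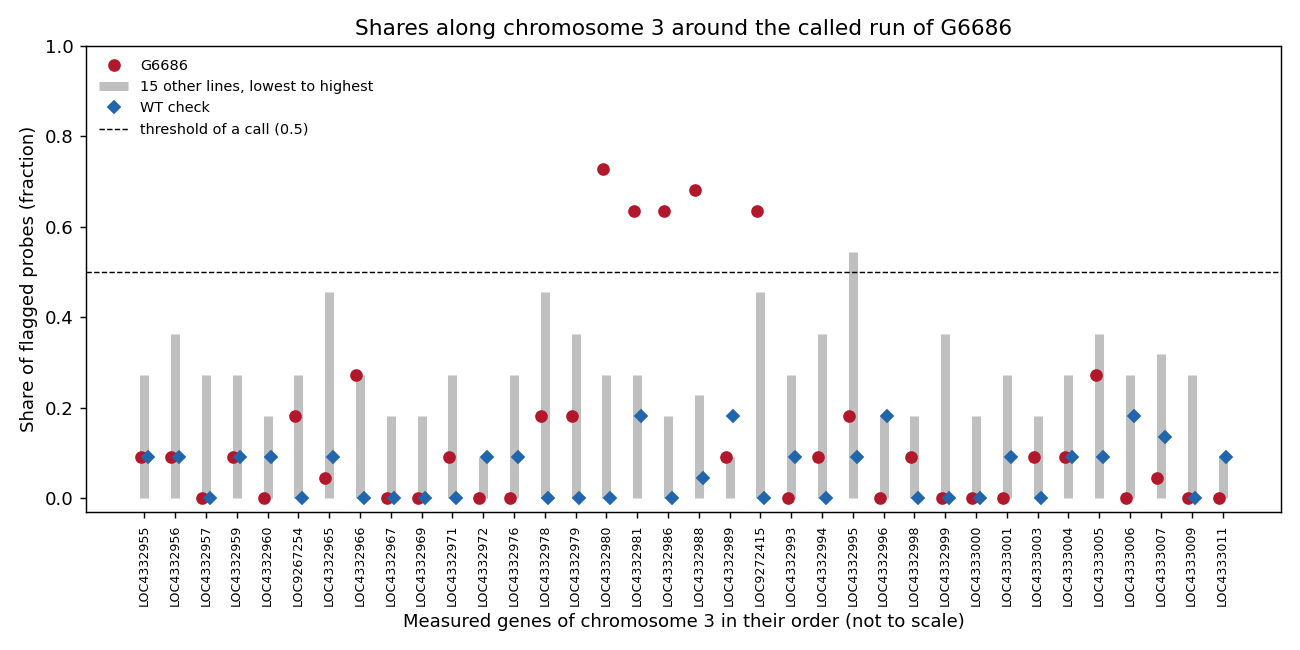
Share of flagged probes for each measured gene around the run on chromosome 3, in gene order and not to scale, in G6686 (red circles), in the 15 other lines (grey bars, lowest to highest) and in the WT check (blue diamonds); the dashed line is the threshold of 0.5. The 5 called genes of G6686 stand between 0.636 and 0.727, while LOC4332989 inside the run and the genes on both sides are at 0.273 or below in G6686.

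G6686 exceeded the WT check by 0.455 to 0.727 at the 5 called genes, and by at most 0.273 at the 15 measured genes on each side. The 5 genes were picked by their share in G6686. Their height there, against the flanks and against all measured genes, follows in part from that choice. The 5 called genes averaged 0.664 in G6686 (median 0.636, lowest 0.636, highest 0.727) and 0.0455 in the WT check (median 0, highest 0.182). Over all measured genes the mean share was 0.0532 in G6686 and 0.0815 in the WT check. In the 15 other lines, which were compared with the same wild type reference, the median over these 5 genes ranged between 0 and 0.273. It was 0 in 8 of them, and F1856 had no flagged probe in any of the 5. The line at 0.273 was G6989, whose mean over all measured genes, 0.216, was also the highest of the series. None of the 5 genes was called in any of the other lines.

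The run covers more gene models than the array measured. From LOC4332980 to LOC9272415 the assembly lists 11 models, of which 5 had no probe set paired with them alone. These were the protein coding gene LOC9269580, 2 lncRNA genes and 2 tRNA genes, and all 5 lay between LOC4332981 and LOC4332986. One more model without a probe set stood directly before the run and none directly after it, so the nearest measured genes set the limits of the run only to within those models. The order is that of a japonica assembly, and the order in IR64 was not examined.

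Outside the run, none of the 2451 measured genes of chromosome 3 was called in G6686, and their mean share was 0.0526 in G6686 and 0.0813 in the WT check. For the genes of all other chromosomes the means were 0.0531 in G6686 and 0.0816 in the WT check. One gene of chromosome 3, LOC4331380, was just under the threshold, with 0.455 in G6686 and 0.0909 in the WT check. At the level of single probe sets, 8 of 3009 sets on chromosome 3 were called (0.266%). Of these, 6 belonged to the run, and the other 2 belonged to genes whose remaining sets were low.

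Elsewhere the calls stood alone. The 7 other genes called in G6686 lay on 6 chromosomes, with 2 on chromosome 1 and 1 each on chromosomes 4, 7, 10, 11 and 12. Each had a single probe set. The pair on chromosome 1 was separated by 1973 uncalled measured genes. The 14 measured genes that flank these 7 had a highest share of 0.273 in G6686 and a median of 0.0455, and 7 of them were at 0.

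The gene with the highest share in G6686 was LOC4348076 on chromosome 10, with 0.909 in G6686 and 0.182 in the WT check. Among the other lines it was at 0 in 9 and highest in G6989, at 0.273. The measured genes on either side of it were both at 0.0909 in G6686. The difference between G6686 and the WT check at LOC4348076, 0.727, equalled that at LOC4332980. Each of these genes had 1 probe set, but LOC4332980 lay in the run, whereas neither measured neighbour of LOC4348076 was called.

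The 6 remaining isolated genes all had a share of 0.545 in G6686, the lowest called value of any gene. LOC4325466 on chromosome 1 and LOC4352230 on chromosome 12 were at 0 in the WT check, LOC4335467 on chromosome 4 and LOC4343911 on chromosome 7 were at 0.0909, LOC4325077 on chromosome 1 was at 0.182, and LOC4350509 on chromosome 11 was at 0.273. In the other lines these 6 genes reached higher values than most genes of the run did. The highest share among the other lines was 0.364 for LOC4352230, 0.455 for LOC4325466, LOC4335467 and LOC4343911, 0.636 for LOC4350509 (in G6989) and 0.727 for LOC4325077 (in G6603). For 2 of the 6 genes another line thus had a share above that of G6686.

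**Figure D3:**
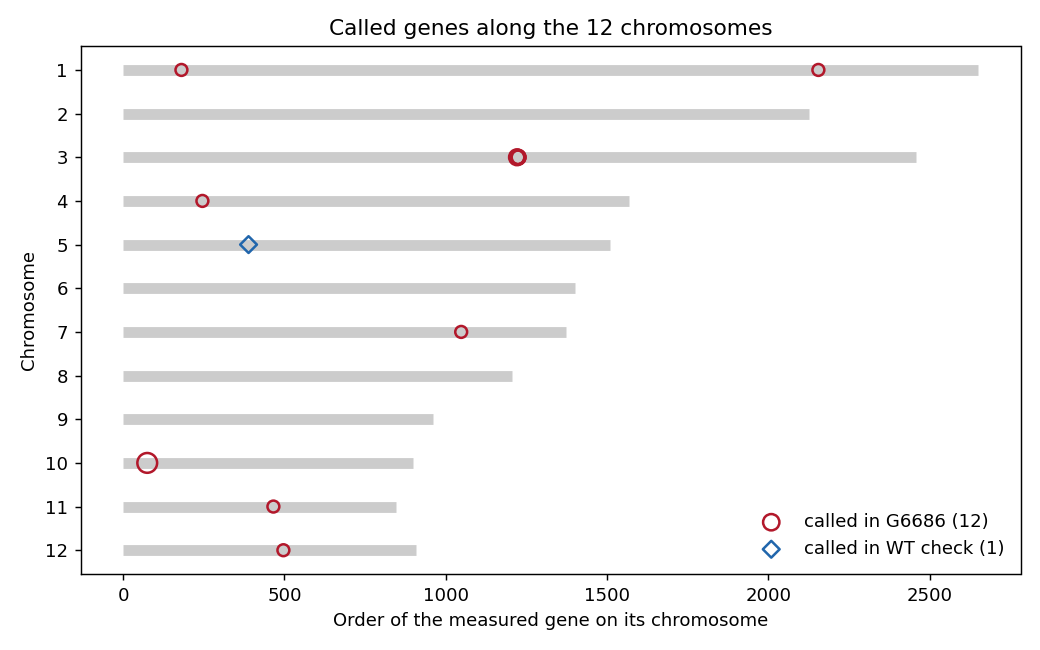
Genes called in G6686 (red circles, 12) and in the WT check (blue diamond, 1) by their order among the measured genes of the 12 chromosomes (grey bars); the area of a symbol grows with the share. The calls of G6686 overlap at 1 place on chromosome 3, the run of 5 genes, and stand singly elsewhere, with the largest circle at LOC4348076 on chromosome 10 (0.909).

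Just under the threshold, 11 genes of G6686 had a share of 0.455, with the WT check between 0 and 0.182 (median 0). They included LOC4325215, LOC4327659 and LOC4324404 on chromosome 1 and LOC4335881 on chromosome 4, each at 0 in the WT check. The isolated genes at 0.545 were thus next to a larger group of genes 1 step of the scale below them, whereas the lowest gene of the run was at 0.636.

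The gene called in the WT check, LOC4338090 on chromosome 5, had a share of 0 in G6686, up to 0.364 in the other lines and 0.545 in the WT check. A further pair of sets called in the WT check were paired with a gene, LOC4336693 (0.273 in G6686, 0.545 in the WT check) and LOC4350004 (0 in G6686, 0.545 in the WT check). Both were named after their values were seen.

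Of the 32 probe sets called in G6686, 19 were paired with 1 gene and belonged to 18 genes. The 6 genes among these that were not called had one set over the threshold and others far below it, and they are named here after their values were seen. On chromosome 3, LOC4334778 had sets at 0.545 and 0.0909 in G6686 (0.182 and 0 in the WT check), and LOC4331918 had sets at 0.5, 0.182 and 0.0909 in G6686 (0, 0 and 0.0909 in the WT check). LOC4328788 on chromosome 2 had sets at 0.5 and 0.0909 in G6686 (0.1 and 0 in the WT check). On chromosome 6, LOC9266475 had sets at 0.545 and 0.182 in G6686 (0.0909 and 0.364 in the WT check).

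LOC9268397 on chromosome 9 had 1 set at 0.5 in G6686 and 0.125 in the WT check, and its 3 other sets were at or below 0.182 in G6686. On chromosome 10, LOC4348707 had sets at 0.545, 0.182 and 0 in G6686 (0.273, 0.0909 and 0 in the WT check). Since these 6 genes are those with a called set but an uncalled median, the spread among their sets follows from how they were picked. In other lines the called set reached 0.909 for LOC4334778, 0.875 for LOC9268397, 0.75 for LOC4331918, 0.727 for LOC4348707 and 0.6 for LOC4328788, each above G6686. For LOC4348707 the median over the other lines was 0.545, the same as in G6686. Only the called set of LOC9266475 stayed below G6686 in every other line, at 0.455 or less.

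The other 13 probe sets called in G6686 (40.6%) had no gene in the tables used, against 60.6% of all sets on the array and 8 of the 11 sets called in the WT check. These sets cannot be placed on a chromosome here, so any that lie within the run would not be seen. By name, 9 of the 13 were OsAffx sets and 4 were Os sets. OsAffx sets made up 28.1% of the sets called in G6686, 36.4% of those called in the WT check and 44.6% of the array. Sets whose names end in _x_at, which on Affymetrix arrays marks probes that may match more than one transcript, made up 0 of the 32 called in G6686, 4 of the 11 called in the WT check and 12.5% of the array.

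For the called sets with no gene the median share was 0.636 in G6686 and 0.0909 in the WT check, and 10 of the 13 were at 0.6 or more in G6686. The 19 sets with a gene had a median of 0.545 in G6686 and 0.0909 in the WT check. The difference between G6686 and the WT check ranged between 0.455 and 0.75 for the sets with no gene and between 0.273 and 0.727 for the sets with a gene.

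OsAffx.13299.1.S1_at was the only probe set at 1 in G6686, and it was at 0.25 in the WT check. It is one of the sets whose shares are not multiples of 1/11. It was also at 1 in G6989 and at 0.875 in G6728, so its full share was not seen in G6686 alone. The related set OsAffx.13299.1.S1_x_at, which shares its name stem, had 0.182 in G6686 and 0.0909 in the WT check.

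A pair of called sets shared the stem OsAffx.25243.1. OsAffx.25243.1.A1_at had 0.727 in G6686, up to 0.273 in the other lines and 0.182 in the WT check, while OsAffx.25243.1.S1_at had 0.636 in G6686 and at most 0.0909 in both the other lines and the WT check. The sets of the stem OsAffx.25243.2 were low, with 0 and 0.0909 in G6686 and the same values in the WT check. OsAffx.25243.1 was the only stem with no gene that had more than 1 called set.

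The other sets with no gene at 0.6 or more differed in what the other lines showed. OsAffx.13062.1.A1_at (0.727 in G6686) and OsAffx.21702.1.S1_at, Os.54920.1.S1_at and Os.51176.1.S1_at (0.636 each) were all at 0 in the WT check. Their highest shares in the other lines were 0.273, 0.182, 0.0909 and 0.364 in that order. OsAffx.3335.1.S1_at had 0.636 in G6686 and 0.182 in the WT check, and it was at 0 in all 15 other lines.

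In contrast, OsAffx.26327.1.S1_at had 0.636 in G6686, 0.818 in both G282 and G6603, and 0.0909 in the WT check. OsAffx.719.1.S1_s_at had 0.625 in G6686, 0.75 in G6989 and 0 in the WT check, with a median of 0.5 over the other lines. Of the 3 called sets with no gene below 0.6, named after their values were seen, Os.23615.1.A1_at stayed at or below 0.0909 in every other array. The other two, Os.18866.2.S1_at and OsAffx.25583.1.S1_at, reached 0.545 and 0.909 in other lines.

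**Figure D4:**
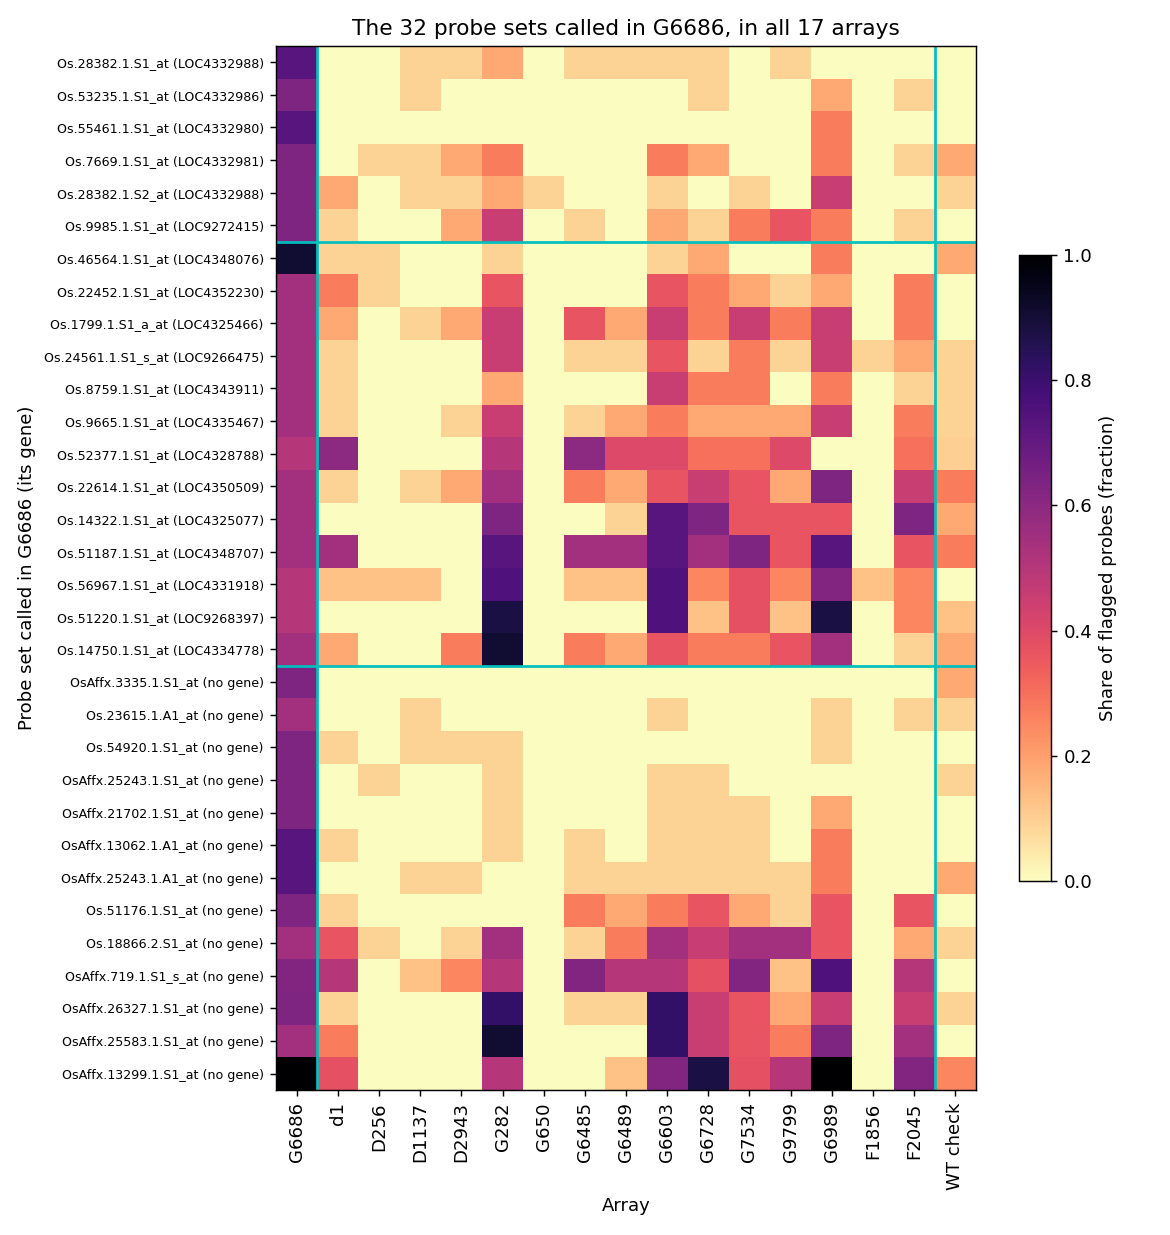
Share of flagged probes (colour, 0 to 1) of the 32 probe sets called in G6686, in rows, on all 17 arrays, in columns, with G6686 at the left, the 15 other lines in the middle and the WT check at the right. The rows are the 6 sets of the chromosome 3 run, the 13 other sets with a gene and the 13 sets with no gene, and within each block they are ordered by the highest share among the other lines, which is at most 0.455 in the run and reaches 1 among the sets with no gene.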

How the data were processed

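The values used cover 1 array each of genomic DNA from 16 mutant lines and from wild type IR64; further replicate hybridizations that the study describes were not analysed here. The authors averaged repeated scans, read perfect match signals with affy (submitters' processing notes, no version), scaled them to the wild type average without background correction and flagged probes by their log ratio to wild type. The deposited values are the fraction of flagged probes in each probe set. Depth does not apply to arrays, their number limits the precision, and raw signals were not used here.

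Shares were analysed with Python 3.11.15, numpy 2.4.6, pandas 2.3.3 and scipy 1.17.1, and plotted with matplotlib 3.10.9. Of 57194 probe sets, 22436 were paired with 1 gene, 95 with several (left out of gene counts) and 34663 with none. Called genes were joined into a run across at most 5 uncalled measured genes. All samples had labels, and 0 columns were left unmapped. Only the step that finds the run was tested on simulated data. There the planted genes had a higher expected share than the run of G6686 and all genes were independent. That test was therefore easier than these data.

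Named genes were those called on either array, those inside the run, the 5 measured genes next to each end, up to 5 genes at 0.4 to below 0.5, and called sets with no gene at 0.6 or more. The lines, members and rules were chosen with earlier results of these data known. Alternatives were thresholds of 0.4 and 0.6, median centring, subtraction of the WT check, recurrent or cross-matching sets left out, the highest or lowest set of a gene, and gaps of 2 and 10 genes.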

Additional observations from a re-analysis of the deposited data

How the results depend on the processing

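Of 54 alternative values, 47 stayed within 1.5 times the value given above or did not move, and 7 did not. Some of the 47 could not have moved, among them all values of G6686 after centring, so this count is no measure of stability. The 7 that moved all came from the thresholds of 0.4 and 0.6 and from subtraction of the WT check. With a threshold of 0.4, G6686 had 91 called sets, 23 called genes and 46 called sets with no gene; with 0.6 it had 17 sets and 6 genes. With the WT check subtracted, 19 sets and 7 genes were called. The WT check had 90 called sets at 0.4, and 0 both at 0.6 and after centring each array on its median, since its median was 0.0909. The run held the same 5 genes in 10 of 11 settings, and 4, without LOC4332981, after subtraction of the WT check. Given the values of the run, none of the 10 agreeing settings could have removed a gene from it. The median of G6686 was 0, so centring left its shares as they were. The lowest share of the run was 0.636, above each alternative threshold. Only 1 uncalled gene lay inside the run, fewer than either gap allowed. No set of the run was called in another line or in the WT check, or had a cross-matching name ending. Where a gene of the run had more than 1 set, all were called. Agreement in those settings therefore cannot show how stable the run is. Called genes on chromosome 3 numbered between 4 and 7. With more than 0.5 as the threshold, chosen after seeing the data, 29 sets were called. Leaving out 89 sets called in 4 or more lines or in the WT check removed 9 of the 32. No paired analysis was possible because G6686 and the WT check have 1 array each. Signal over background is not known, so dim probes cannot be told apart from others.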

Other observations

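The genes paired with a probe set also included 1 mitochondrial and 1 plastid gene, outside the nuclear order. The probe set of cob, a mitochondrial gene for cytochrome b, had a share of 0 in G6686, up to 0.818 in the other lines (in d1) and 0 in the WT check. The probe set of atpI, a plastid gene for a subunit of ATP synthase, had 0 in G6686, up to 0.818 in the other lines (in G650) and 0.0909 in the WT check. Neither differed between G6686 and the WT check by more than 1 step of the scale.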
